A study of Mus musculus with 12 samples.

Results

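Non-peptidergic nociceptors are the small unmyelinated neurons of the dorsal root ganglia that carry pain and itch from the skin, and 10 genes that define them were described here in every library of the series. The genes are the receptors Mrgprd, Lpar3, Lpar5, Il31ra, Osmr, Cysltr2, P2rx3 and Mrgpra3 and the peptides Nppb and Sst. They were taken from both deposited tables by Ensembl identifier. The table of the adeno-associated virus (AAV) experiment held 9 of the 10 among its 13178 genes, Sst not being listed, and the table of the ribose experiment held 10 of 10 among its 21650 genes.

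RNA came from the L4-6 ganglia, which feed the sciatic nerve, of C57BL/6J mice aged 8 weeks. All mice of the groups used here had a spinal cord injury 72 h before collection. The RNA was not of neurons alone, as markers of satellite glia, Schwann cells and red cells were also measured. In the AAV experiment the virus was injected through the sciatic nerve for 4 weeks and carried either transketolase (AAV-TKT), an enzyme of the pentose phosphate pathway, or green fluorescent protein (AAV-GFP), with 3 libraries a group. In the ribose experiment the mice received either 10% ribose (Ribose), the pentose sugar that feeds the same pathway, or Vehicle, with 3 libraries a group. The labels name neither the promoter of the virus, nor the cells it reached, nor any pooling of animals. They also do not say whether replicates were different mice, so every p-value below speaks of the spread among libraries, which may be technical. Values are FPKM, a read abundance corrected for transcript length and for the size of the library, and the 2 tables were scaled separately, so levels were compared only within a table.

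The skin's non-peptidergic fibres fall into classes known from mouse single-cell work. Neurons with Mrgprd, a receptor for beta-alanine, also carry the lysophosphatidic acid receptors Lpar3 and Lpar5. Neurons with Mrgpra3, the chloroquine receptor, serve itch. A further itch class makes the peptides Nppb (B-type natriuretic peptide) and Sst (somatostatin) and senses cytokines and leukotrienes through Il31ra, Osmr and Cysltr2. Osmr is a shared chain, which pairs with Il31ra in one receptor and with Il6st in the receptor for oncostatin M. P2rx3, an ATP-gated channel, is shared by most non-peptidergic fibres.

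The 10 genes had 1 identifier each, and all are protein-coding genes of GRCm38 (GENCODE M21 annotation). Their FPKM summarises their exons. Mrgprd (ENSMUSG00000051207) spans bases 145314835 to 145324086 of chromosome 7, Lpar3 (ENSMUSG00000036832) bases 146220963 to 146286186 of chromosome 3, and Lpar5 (ENSMUSG00000067714) bases 125067920 to 125082472 of chromosome 6, all plus strand. Il31ra (ENSMUSG00000050377) spans bases 112519898 to 112594360 of chromosome 13, minus strand, where an exon overlaps Gm3226 on the same strand. Osmr (ENSMUSG00000022146) spans bases 6813577 to 6874969 of chromosome 15 and Cysltr2 (ENSMUSG00000033470) bases 73025603 to 73049114 of chromosome 14, both minus strand. Nppb (ENSMUSG00000029019) spans bases 147985788 to 147987205 of chromosome 4, plus strand, and Sst (ENSMUSG00000004366) bases 23889573 to 23890958 of chromosome 16, minus strand. P2rx3 (ENSMUSG00000027071) spans bases 84998583 to 85037462 of chromosome 2, minus strand, and shares exon bases with Ssrp1 on the opposite strand. Mrgpra3 (ENSMUSG00000078698) spans bases 47588950 to 47601372 of chromosome 7, minus strand, and 21.4% of its 31-base words recur in other genes, with 14.5% of all its words found in Mrgpra4, so its FPKM is uncertain. Of the other 9 genes at most 2.07% of the words recur elsewhere. The read counter and its strand setting are not given in the sources used, so reads of overlapping genes cannot be told apart from those of Il31ra and P2rx3.

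The genes varied together across libraries, and the 250 bases upstream of their annotated starts are described here. RefSeq windows on GRCm38.p6 were matched by symbol for 8 of the 10 genes, in 9 windows, P2rx3 and Mrgpra3 having no entry. RefSeq starts need not equal the GENCODE gene ends given above: the windows of Il31ra, Osmr and the second start of Lpar5 lie inside the gene's span, and those of Sst and Nppb partly inside. They were searched on both strands for TGTGGT, the core that Runx factors bind and of interest because Runx1 shapes this lineage, for the cyclic AMP response element TGACGTCA, the AP-1 site TGANTCA, the STAT site TTCNNNGAA and the TATA box TATAAA. No 2 matches in a window overlapped. The windows below show the gene that names the class, with no match, and 3 genes with a match of a different kind, in capitals.
Mrgprd, chr7:145314585-145314834, plus strand: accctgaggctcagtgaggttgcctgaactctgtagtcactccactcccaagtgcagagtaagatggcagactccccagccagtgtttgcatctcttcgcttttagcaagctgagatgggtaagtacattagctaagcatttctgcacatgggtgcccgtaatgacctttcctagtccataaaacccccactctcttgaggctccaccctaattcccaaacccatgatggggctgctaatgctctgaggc
Lpar5, second start, chr6:125071085-125071334, plus strand: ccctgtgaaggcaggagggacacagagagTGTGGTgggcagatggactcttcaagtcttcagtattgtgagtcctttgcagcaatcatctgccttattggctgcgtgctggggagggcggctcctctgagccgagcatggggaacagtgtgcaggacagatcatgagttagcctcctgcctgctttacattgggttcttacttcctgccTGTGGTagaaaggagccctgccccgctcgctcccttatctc
Il31ra, chr13:112580663-112580912, minus strand: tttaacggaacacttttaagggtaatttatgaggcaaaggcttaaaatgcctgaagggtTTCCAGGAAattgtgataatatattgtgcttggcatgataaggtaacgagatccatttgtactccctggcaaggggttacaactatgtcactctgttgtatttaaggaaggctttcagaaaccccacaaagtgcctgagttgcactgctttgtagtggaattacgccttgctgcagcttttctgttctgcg
Sst, chr16:23890845-23891094, minus strand: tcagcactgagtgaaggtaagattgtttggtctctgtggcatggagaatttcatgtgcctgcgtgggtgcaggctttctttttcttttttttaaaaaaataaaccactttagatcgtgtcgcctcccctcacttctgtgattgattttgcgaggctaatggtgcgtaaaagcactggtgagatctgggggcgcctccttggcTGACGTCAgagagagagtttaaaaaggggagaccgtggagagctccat
The window of Lpar5 held TGTGGT at -221 and -41 from the start, and its other start, not shown, held it at -140, whereas 14% of 32851 mouse promoter windows of the same length held it. Il31ra held the STAT site TTCCAGGAA at -191, against 7.02% of all windows, and Sst held TGACGTCA at -48, against 1.55%. Nppb held TATAAA at -31, against 12.4%. No window of the 8 genes held the AP-1 site, which 6.75% of all windows held, and Mrgprd, Lpar3, Osmr and Cysltr2 held none of the 5 motifs. A match is a description of letters and shows no binding.

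In both experiments the channel P2rx3 had the highest mean FPKM of the genes, and a peptide, Nppb in the AAV table and Sst in the ribose table, the lowest. In AAV-TKT and AAV-GFP libraries the order by mean FPKM was P2rx3, Mrgprd and Lpar3, then Mrgpra3 and Lpar5, then Osmr, Cysltr2 and Il31ra, with Osmr ahead of Cysltr2 in AAV-TKT and behind it in AAV-GFP, and last Nppb. P2rx3 averaged 97.4 ± 7.63 FPKM in AAV-TKT and 101.8 ± 4.74 FPKM in AAV-GFP (SD, n = 3 each), Mrgprd 48.3 ± 1.66 FPKM in AAV-TKT and 55.1 ± 9.61 FPKM in AAV-GFP, and Nppb 0.855 ± 0.459 FPKM in AAV-TKT and 1.65 ± 0.925 FPKM in AAV-GFP. Within each group, neighbours in this order did not overlap, except Mrgpra3 with Lpar5 and the trio of Osmr, Cysltr2 and Il31ra among themselves. In the ribose experiment the order by mean was the same for the first 5 genes in both groups, P2rx3 averaging 134.1 ± 32.3 FPKM in Ribose and 145.1 ± 61.3 FPKM in Vehicle. Sst came last, at 0.872 ± 0.774 FPKM in Ribose and 1.64 ± 2.28 FPKM in Vehicle (SD, n = 3 each). The libraries spread so widely there that every pair of neighbours overlapped in both groups, except Lpar3 over Mrgpra3 in Ribose.

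**Figure D1:**
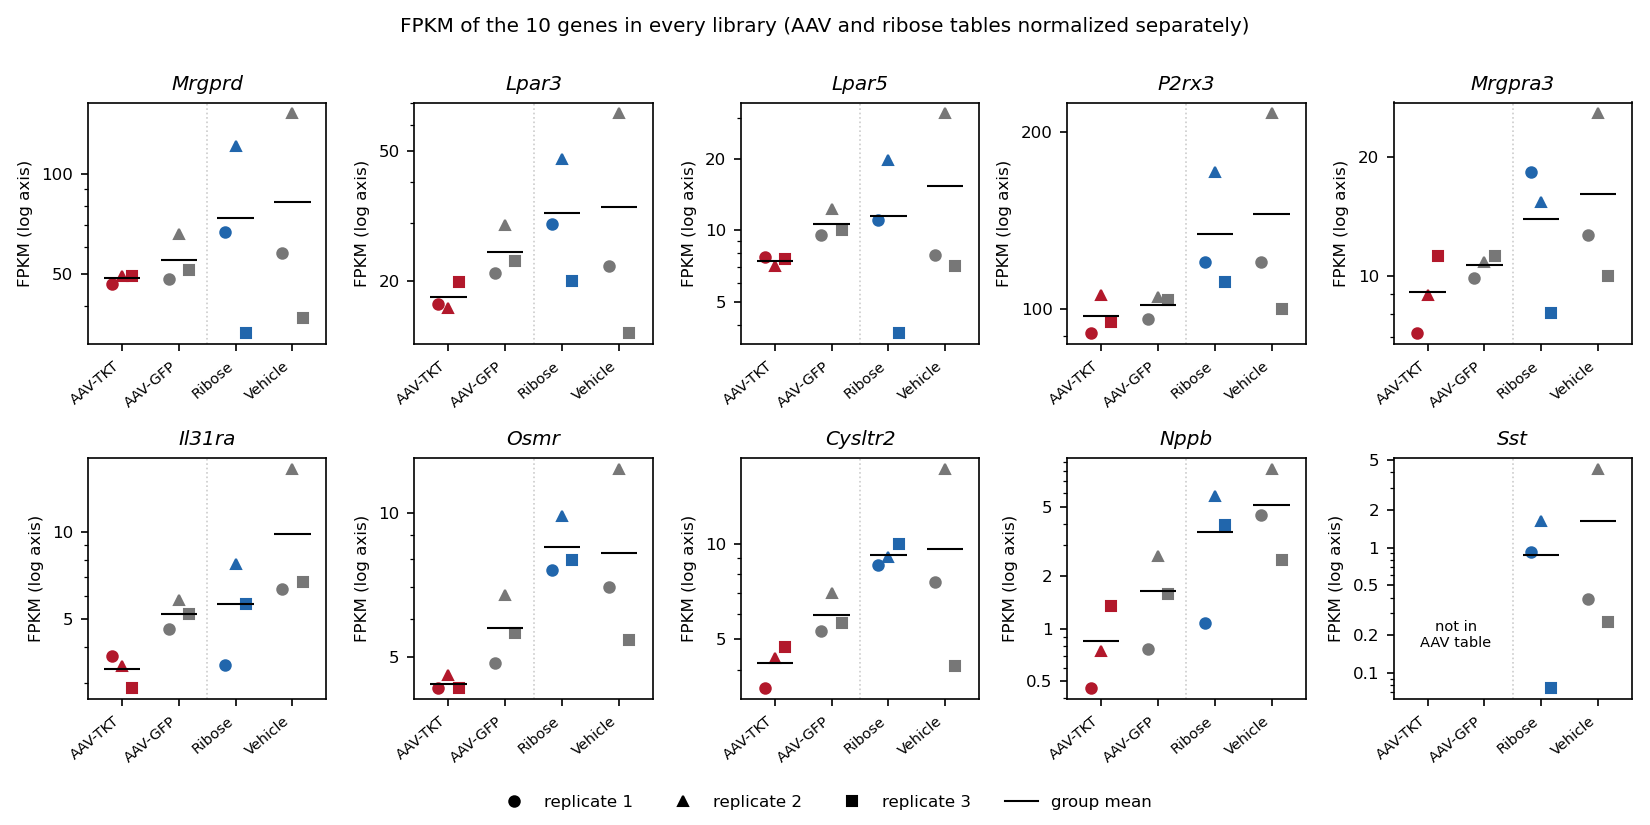
FPKM of each gene (log axis, a range of its own per panel) in the 3 libraries of each group, with symbols for the replicate number and a bar for the group mean. The 3 AAV-TKT points of Lpar3, Lpar5, Il31ra, Osmr and Cysltr2 all lie below the 3 AAV-GFP points, and Vehicle replicate 2 is the highest ribose-experiment library in 10 of 10 panels.

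The AAV experiment compared ganglia given transketolase with ganglia given a marker protein after a cord injury, and Tkt itself was higher in AAV-TKT (log2(FPKM + 1) change 1.27, limma adjusted p = 0.0054 over 13178 genes). The non-peptidergic genes were all lower on average in AAV-TKT: the fitted change was negative for 9 of 9, and for 5 of 9 every AAV-TKT library lay below every AAV-GFP library. None of the 9 passed the threshold of 0.05 on the adjusted p, and 5 of 9 had an unadjusted p under 0.05, all lower. The median of the 9 changes was -0.42, against a median of 0.014 over all genes tested. Over all genes, 0.0152% passed the adjusted threshold, 10.6% had an unadjusted p under 0.05 and 4.36% had one with AAV-TKT lower. Groups that did not overlap, with AAV-TKT lower, were found for 7.2% of all genes, and a negative change for 46.3%. The 9 genes are expressed in overlapping sets of neurons, so their signs are not 9 independent results. Nppb averaged 0.855 FPKM in AAV-TKT, under the lowest gene mean listed (1.00041 FPKM), and 1.65 FPKM in AAV-GFP. Nppb was thus listed through AAV-GFP, and its negative sign, counted in the 9 and in the median, is no separate support.

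Among the receptors of the Mrgprd class, the lysophosphatidic acid receptors had estimates further below 0 than Mrgprd itself, a difference that was not tested. Lpar5, a receptor linked to itch, had 7.70, 7.06 and 7.59 FPKM in AAV-TKT, against 9.53, 12.3 and 10.1 FPKM in AAV-GFP. The groups did not overlap, and the change on log2(FPKM + 1) was -0.45 (SE 0.104, limma adjusted p = 0.359, unadjusted p = 0.00289). Lpar3, its relative, had 17.0, 16.4 and 19.9 FPKM in AAV-TKT, against 21.1, 29.6 and 22.9 FPKM in AAV-GFP. These groups also did not overlap, with AAV-GFP replicate 2 the highest, and the change was -0.43 (SE 0.134, limma adjusted p = 0.384). Mrgprd had 46.4, 49.3 and 49.3 FPKM in AAV-TKT, against 48.0, 66.0 and 51.2 FPKM in AAV-GFP, and the lowest AAV-GFP library lay among the AAV-TKT libraries. Its change was -0.17 (95% interval -0.45 to 0.10, limma adjusted p = 0.604).

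The receptors of the Nppb and Sst class lay lower too. Il31ra, the specific chain of the receptor for the itch cytokine interleukin-31, had 3.72, 3.42 and 2.86 FPKM in AAV-TKT, against 4.62, 5.81 and 5.19 FPKM in AAV-GFP. Its groups did not overlap, and its change of -0.52 (SE 0.119, limma adjusted p = 0.359, unadjusted p = 0.00293) was the largest of the 9 in size with this pseudocount, Nppb being further below 0 with a smaller one. Osmr, the shared chain, had 4.30, 4.58 and 4.30 FPKM in AAV-TKT, against 4.85, 6.74 and 5.62 FPKM in AAV-GFP, a change of -0.31 (SE 0.118, limma adjusted p = 0.437). Cysltr2, a cysteinyl leukotriene receptor, had 3.50, 4.37 and 4.73 FPKM in AAV-TKT, against 5.29, 6.98 and 5.60 FPKM in AAV-GFP, a change of -0.42 (SE 0.134, limma adjusted p = 0.400). Neither gene's groups overlapped.

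Nppb, the peptide that itch neurons release onto the spinal cord, was near the lower end of what was listed. It had 0.457, 0.752 and 1.36 FPKM in AAV-TKT, against 0.764, 2.61 and 1.58 FPKM in AAV-GFP, and the groups overlapped. Its change of -0.48 had the widest interval of the 9, -1.16 to 0.20. At this level the change depends on the pseudocount, being -0.63 with 0.5 and -0.84 with 0.1 in place of 1. Nppb was listed through its AAV-GFP libraries, its AAV-TKT mean lying below the lowest gene mean listed, so its sign is no separate support. Sst was not listed in this table.

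P2rx3, the ATP-gated channel, had the change nearest to 0. It had 91.1, 105.9 and 95.2 FPKM in AAV-TKT, against 96.3, 105.05 and 103.9 FPKM in AAV-GFP, a change of -0.06 (95% interval -0.25 to 0.12). Mrgpra3 had 7.15, 8.92 and 11.2 FPKM in AAV-TKT, against 9.88, 10.8 and 11.2 FPKM in AAV-GFP, a change of -0.22 (95% interval -0.56 to 0.12). Both genes' groups overlapped.

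**Figure D2:**
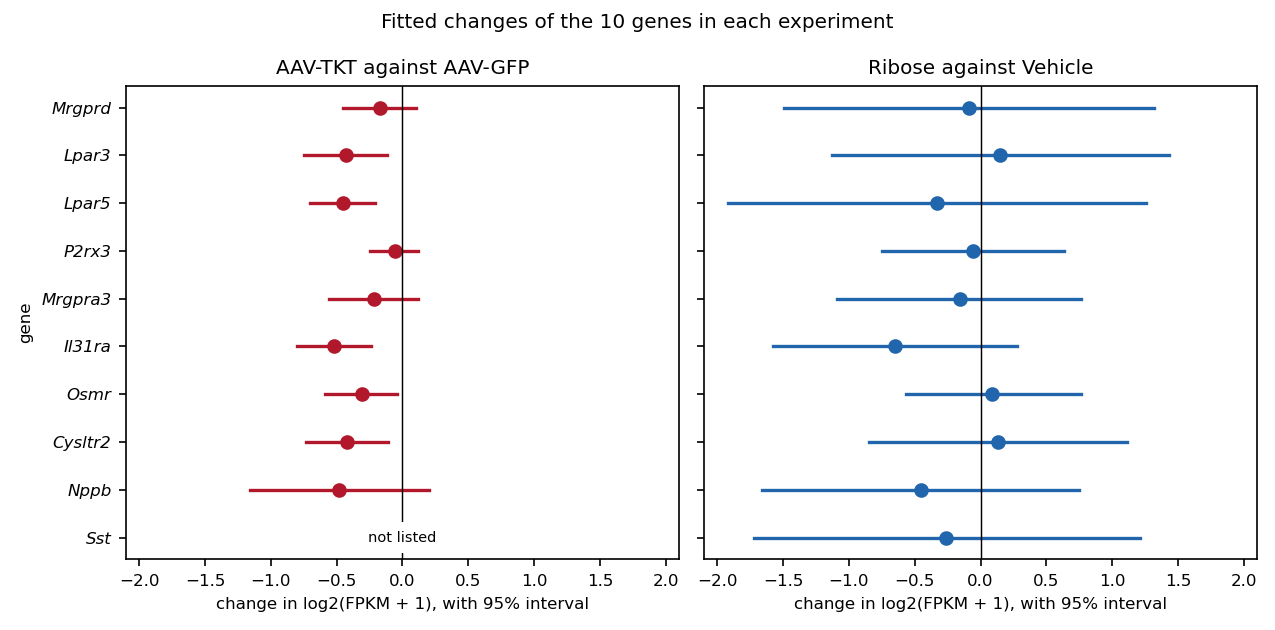
Fitted change on log2(FPKM + 1) with its 95% interval from limma for each gene, AAV-TKT against AAV-GFP on the left and Ribose against Vehicle on the right, on the same axis. The 9 AAV estimates lie between -0.52 and -0.06, and the ribose estimates between -0.65 and 0.15 with wider intervals.

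AAV-GFP replicate 2 stood apart in these genes. It was the highest of the 6 libraries for 7 of 9 genes, and 1.02 to 2.23 times the mean of the other AAV-GFP libraries. Without it the median of the 9 changes was -0.23. Other cell types also moved with the groups. All 11 neutrophil markers were listed, none was at 0 in any library, and their summed level was 20.2 to 32.8 FPKM in AAV-TKT and 98.3 to 266.1 FPKM in AAV-GFP. Of 9 red cell markers 8 were listed, summing to 83.8 to 106.3 FPKM in AAV-TKT and 126.0 to 489.7 FPKM in AAV-GFP, and of 12 macrophage markers 8 were listed, summing to 14.3 to 20.2 FPKM in AAV-TKT and 39.6 to 53.2 FPKM in AAV-GFP. The 10 markers of large-diameter neurons summed to 1246 to 1412 FPKM in AAV-TKT and 1007 to 1138 FPKM in AAV-GFP, and the 10 pan-neuronal markers to 6381 to 7257 FPKM in AAV-TKT and 5529.5 to 6252 FPKM in AAV-GFP. Further lists had mostly negative changes in AAV-TKT: injured neurons (9 of 10, median -0.22), satellite glia (7 of 8, median -0.36), Schwann cells (6 of 7, median -0.24) and fibroblasts (5 of 5, median -0.47). The part of these shifts in the lower non-peptidergic values was not tested. In such bulk samples, fewer cells of a type and less RNA per cell cannot be told apart.

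Ratios between genes within a library do not depend on its scaling. They were chosen after the values were seen and are given as a description. The Lpar5 to Mrgprd ratio of FPKM was 0.166, 0.143 and 0.154 in AAV-TKT, against 0.198, 0.186 and 0.197 in AAV-GFP. The Lpar3 to Mrgprd ratio was 0.366, 0.333 and 0.403 in AAV-TKT, against 0.438, 0.449 and 0.447 in AAV-GFP, so both receptors were lower relative to Mrgprd in AAV-TKT, with no overlap. In the ribose experiment neither ratio separated the groups: Lpar5 to Mrgprd was 0.165, 0.163 and 0.111 in Ribose, against 0.136, 0.205 and 0.194 in Vehicle, and Lpar3 to Mrgprd was 0.445, 0.388 and 0.605 in Ribose, against 0.384, 0.427 and 0.376 in Vehicle. The Il31ra to Osmr ratio was lower in Ribose, at 0.455, 0.789 and 0.706, against 0.905, 1.35 and 1.24 in Vehicle, with no overlap. In the AAV experiment it was 0.866, 0.746 and 0.666 in AAV-TKT, against 0.952, 0.862 and 0.923 in AAV-GFP, where the highest AAV-TKT library just passed the lowest AAV-GFP library. The other 2 ratios computed overlapped in both experiments. Cysltr2 to Osmr was 0.815 to 1.10 in AAV-TKT, 0.997 to 1.09 in AAV-GFP, 0.922 to 1.25 in Ribose and 0.760 to 1.39 in Vehicle, and Mrgprd to P2rx3 was 0.466 to 0.518 in AAV-TKT, 0.492 to 0.629 in AAV-GFP, 0.298 to 0.710 in Ribose and 0.367 to 0.708 in Vehicle.

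**Figure D3:**
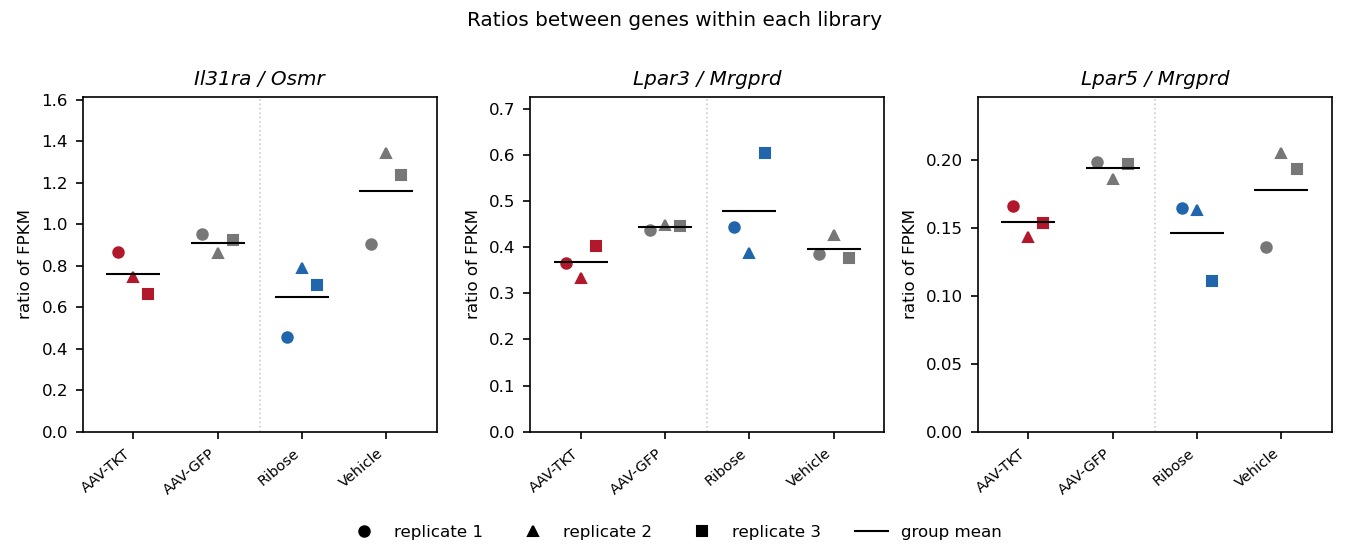
Ratio of FPKM between 2 genes within each library (linear axis from 0), with symbols for the replicate number and a bar for the group mean. The ratios of Lpar3 and Lpar5 to Mrgprd are lower in all 3 AAV-TKT libraries than in all 3 AAV-GFP libraries, and Il31ra to Osmr is lower in all 3 Ribose libraries than in all 3 Vehicle libraries.

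In the ribose experiment, which compared the sugar with its vehicle after the same injury, none of the 10 genes separated Ribose from Vehicle. The fitted change was negative for 7 of 10 and positive for 3 of 10, with a median of -0.126, against -0.023 over all genes tested. None passed the adjusted threshold, which 0.00724% of 13804 genes passed. None had an unadjusted p under 0.05 in limma either, against 4.79% of all genes, and for none did every Ribose library lie below every Vehicle library, which held for 5.35% of all genes. A negative change was found for 55.2% of all genes.

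Ribose replicate 2 and Vehicle replicate 2 were the highest of their groups for most of the genes. Ribose replicate 2 was the highest of its group for 8 of 10 genes, at 0.98 to 3.26 times the mean of the other Ribose libraries (median 1.80). Vehicle replicate 2 was the highest of all 6 libraries for 10 of 10 genes, at 1.95 to 13.2 times the mean of the other Vehicle libraries (median 2.75), and Vehicle replicate 3 was lowest or second lowest for 9 of 10. The median change was 0.36 without Vehicle replicate 2, -0.40 without Ribose replicate 2 and 0.09 without both. Without Vehicle replicate 3 it was -0.48, with 10 of 10 genes negative, and without Ribose replicate 3 it was 0.11. The sign of the median therefore depended on which library was left out. On the log2 scale the 10 genes deviated from their own means by -0.19, 0.42 and -0.48 in Ribose and by -0.20, 1.03 and -0.58 in Vehicle, on average.

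Other lists moved in the same libraries. The 10 large-diameter markers went the other way, at 0.10, -0.39 and 0.34 in Ribose and 0.25, -0.74 and 0.43 in Vehicle. Satellite glia markers, at 0.30, -1.39 and 0.12 in Ribose and 0.47, -0.35 and 0.84 in Vehicle, were lowest, within each group, in replicate 2. Ribose replicate 2 had 6 of 12 macrophage markers at 0 (Adgre1, Cd68, Csf1r, Ptprc, C1qa and Fcer1g) and a summed neutrophil level of 13.7 FPKM, while in Vehicle replicate 2 that sum was 172.3 FPKM. Macrophage markers were low throughout. Only 3 of the 12 had a mean of at least 1 FPKM, and the 12 summed to 5.7 to 38.3 FPKM in Ribose and 16.3 to 39.3 FPKM in Vehicle. Pan-neuronal markers stayed within -0.07 and 0.06 in all 6 libraries. The part of these differences in the values of the 10 genes was not tested.

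**Figure D4:**
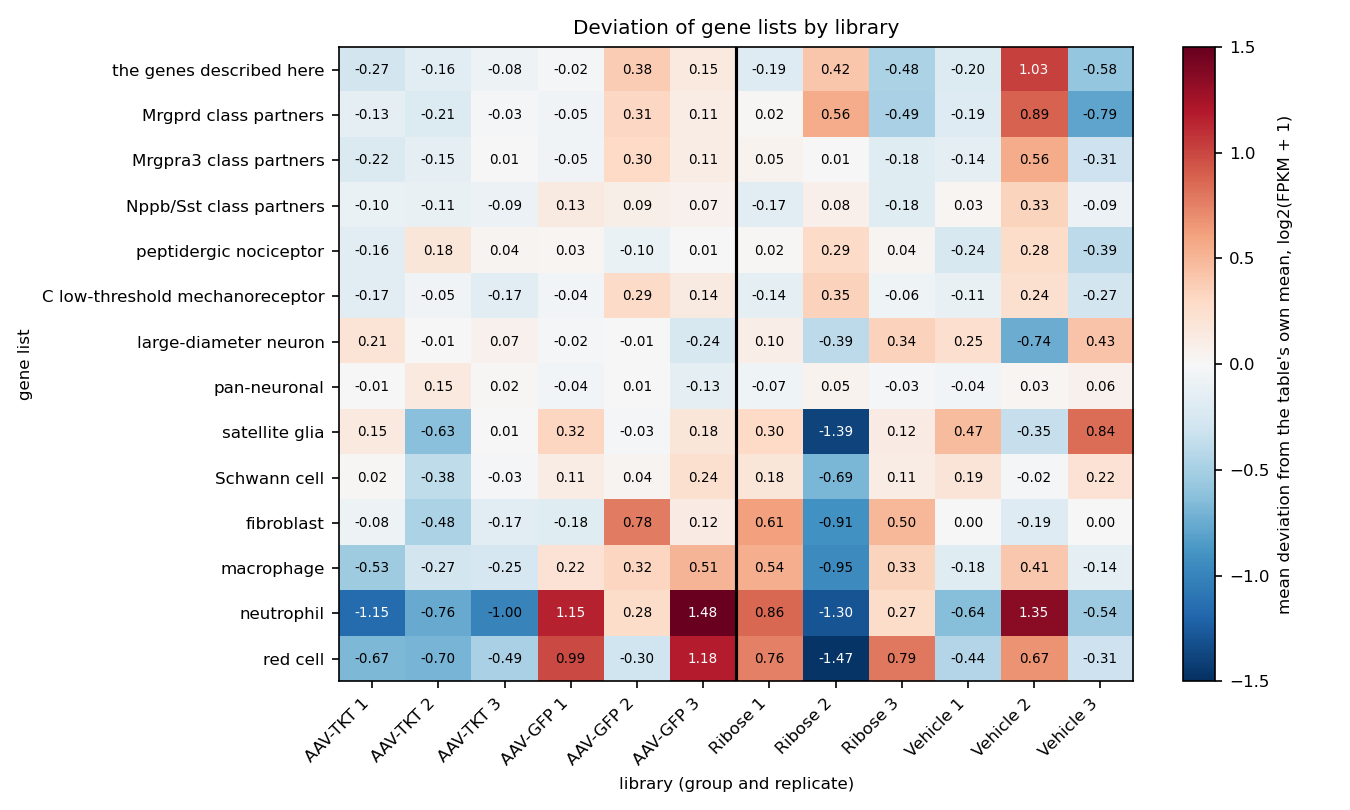
Mean deviation of each gene list from its own table's mean on log2(FPKM + 1), by library, AAV experiment left and ribose experiment right of the line. The 10 genes and the Mrgprd class partners are highest in Vehicle replicate 2 (1.03 and 0.89), where the large-diameter markers are lowest (-0.74).

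Among the Mrgprd class receptors, Mrgprd had 67.0, 121 and 33.0 FPKM in Ribose, against 57.7, 152 and 36.7 FPKM in Vehicle, a change of -0.09 (95% interval -1.49 to 1.32). Lpar3 had 29.8, 47.1 and 20.0 FPKM in Ribose, against 22.2, 65.0 and 13.8 FPKM in Vehicle, a change of 0.15 (95% interval -1.13 to 1.43). Lpar5 had 11.0, 19.8 and 3.68 FPKM in Ribose, against 7.84, 31.2 and 7.11 FPKM in Vehicle, a change of -0.33 (95% interval -1.92 to 1.26). Every one of these intervals spans more than 1 log2 unit on either side of 0, so a p that misses the threshold says little here.

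Of the cytokine and leukotriene receptors, Il31ra had the largest change in size. It had 3.46, 7.77 and 5.62 FPKM in Ribose, against 6.33, 16.6 and 6.69 FPKM in Vehicle, a change of -0.65 (SE 0.397, 95% interval -1.58 to 0.28). Only Ribose replicate 2 reached the Vehicle range, and the limma adjusted p was 1.00. Osmr had 7.59, 9.85 and 7.96 FPKM in Ribose, against 7.00, 12.4 and 5.41 FPKM in Vehicle, a change of 0.09 (95% interval -0.57 to 0.76). Cysltr2 was tight in Ribose, at 8.55, 9.08 and 9.95 FPKM, and wide in Vehicle, at 7.59, 17.2 and 4.11 FPKM, a change of 0.13 (95% interval -0.85 to 1.11).

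The peptides had low and uneven levels. Nppb had 1.08, 5.72 and 3.94 FPKM in Ribose, against 4.50, 8.26 and 2.48 FPKM in Vehicle, a change of -0.45 (95% interval -1.66 to 0.75). Sst, which dampens inhibitory neurons of the cord, had 0.920, 1.62 and 0.0755 FPKM in Ribose, against 0.393, 4.27 and 0.254 FPKM in Vehicle, a change of -0.26 (95% interval -1.72 to 1.21). Its mean over the table reached the 1 FPKM filter through Vehicle replicate 2, where it was 13.2 times the mean of the other Vehicle libraries.

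P2rx3 had 120.2, 171 and 111 FPKM in Ribose, against 120.4, 215 and 100.04 FPKM in Vehicle, a change of -0.06 (95% interval -0.75 to 0.63). Mrgpra3 had 18.3, 15.3 and 8.05 FPKM in Ribose, against 12.7, 25.7 and 9.99 FPKM in Vehicle, a change of -0.16 (95% interval -1.09 to 0.76). Both were spread over libraries more than between groups.

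The effects of the 2 treatments were set against each other in 1 fit over 12 libraries. Of the 9 genes listed in both tables, none differed past the adjusted threshold, which 0.00778% of 12853 genes passed, and none had an unadjusted p under 0.05 in limma, against 6.85% of all genes. The AAV-TKT effect minus the Ribose effect was -0.59 for Lpar3 (95% interval -1.97 to 0.79), -0.55 for Cysltr2 (95% interval -1.61 to 0.50) and -0.41 for Osmr (95% interval -1.12 to 0.30), with limma adjusted p of 0.920, 0.890 and 0.882. For Il31ra it was 0.13 (95% interval -0.86 to 1.12, limma adjusted p = 0.982). Each interval includes 0 and differences either way, so the AAV effects are not shown to differ from those of ribose.

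The genes varied together. Over the 12 libraries, each centred on its own table, the Pearson r of a gene with the mean of the other genes was 0.96 for Lpar3, 0.94 for P2rx3, 0.92 for Osmr, 0.91 for Mrgprd, 0.88 for Lpar5, 0.81 for Cysltr2, 0.77 for Mrgpra3, 0.73 for Il31ra and 0.68 for Nppb. Within the 6 AAV libraries alone it was lower for P2rx3 (0.60) and Mrgpra3 (0.64), and 0.75 to 0.97 for the other genes. Libraries are shared by all points, and Vehicle replicate 2 is the highest ribose-experiment library for every one of these genes. Of 8891 other genes at a mean of at least 5 FPKM in each table, the 5 with the most similar pattern were Klf5 (r = 0.986), Tmem45b (0.986), Rgs4 (0.983), Ccdc68 (0.98) and A3galt2 (0.979). The 5 with the most opposite pattern were Gpr153 (-0.989), Slc6a17 (-0.983), Vwa7 (-0.977), Scn4b (-0.972) and Cnnm1 (-0.972). Within the 6 AAV libraries alone the r of Klf5 was 0.96 and that of Gpr153 was -0.98.

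Other genes of the Mrgprd class had the same sign in AAV-TKT. Of 14 partners, all measured, 14 had a negative change, with a median of -0.20, and none passed the adjusted threshold. A negative change was found for 46.3% of all genes. The partners were listed for the same neuron class, so their signs are not 14 independent results. Tmem45b, a membrane protein of these neurons, had 47.6, 50.1 and 55.4 FPKM in AAV-TKT, against 56.9, 78.3 and 63.4 FPKM in AAV-GFP, a change of -0.36 (limma adjusted p = 0.412) with no overlap. Mrgprb5, a relative of Mrgprd, had a change of -0.71 with an interval up to 0.04. In Ribose 5 of the 14 partners were negative, 8 were positive and 1 was at 0.00, with a median of 0.05. Ret, the signalling chain of glial-factor receptors, had a change of -0.25 there, the angiotensin receptor Agtr1a 0.47 and Wnt2b 0.30.

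Of 12 partners of the Mrgpra3 class 9 were measured in the AAV table, and 9 of 9 were negative, with a median of -0.21. Over all genes 46.3% were negative, and these 9 signs are not independent results either. Mrgpra1, at 0.92 FPKM in AAV-TKT and 1.21 FPKM in AAV-GFP, reached the mean of 1 FPKM of every listed gene through AAV-GFP, so its sign is no separate support. Mrgprb4, known from touch-sensing skin neurons, had 6.38, 6.15 and 5.18 FPKM in AAV-TKT, against 8.15, 11.6 and 6.99 FPKM in AAV-GFP, a change of -0.50 (limma adjusted p = 0.412) with no overlap. Mrgpra2b had a change of -0.51 and the irritant channel Trpa1 one of -0.30, both with overlapping groups. In Ribose 9 of the 12 were tested, with 4 negative, 5 positive and a median of 0.03; Mrgpra2b was at -0.40, Mrgprb4 at -0.26 and the receptor chain Gfra1 at -0.40.

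Of 10 partners of the Nppb and Sst class 9 were tested in each experiment, with a median change of -0.11 in AAV-TKT and -0.14 in Ribose. Nts, the peptide neurotensin, was the gene of this list with the smallest p in both experiments. It had 3.74, 5.33 and 3.81 FPKM in AAV-TKT, against 13.0, 8.30 and 9.50 FPKM in AAV-GFP, a change of -1.08 (SE 0.179, limma adjusted p = 0.234, unadjusted p = 0.00042). It had 2.29, 1.86 and 3.13 FPKM in Ribose, against 8.07, 4.47 and 9.70 FPKM in Vehicle, a change of -1.26 (SE 0.298, limma adjusted p = 0.766, unadjusted p = 0.00358). In both experiments every treated library lay below every control library, which held for 7.2% of all genes in the AAV table and 5.35% in the ribose table. Neither result passed the threshold. Vehicle replicate 2, the highest library for the 10 genes, was the lowest Vehicle library for Nts. Cckar, a cholecystokinin receptor, had a change of -0.30 in AAV-TKT with no overlap and the kinase gene Dgkz one of -0.16, while in Ribose the cytokine-receptor kinase gene Jak1 had -0.16 and Adk, for adenosine kinase, -0.29.

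Genes of cytokine receptor signalling, which include receptor chains for other cytokines and are not all downstream of Il31ra and Osmr, showed no common sign. Of 16 genes of cytokine receptor signalling 14 were measured in the AAV table, with 9 negative, 5 positive and a median of -0.08. Crlf2, a receptor chain of the same family, had 10.0, 8.48 and 9.43 FPKM in AAV-TKT, against 7.52, 6.16 and 7.51 FPKM in AAV-GFP, a change of 0.36 with no overlap. Socs3, a feedback inhibitor, was at -0.39 with overlapping groups, and Il13ra1, another receptor chain, at -0.23 with no overlap. In Ribose 15 were tested, with 9 negative, 6 positive and a median of -0.09, with the inhibitor Cish at 0.62 and Crlf2 at -0.26.

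Ligand genes were thinly measured. Of 14 ligands and ligand-making enzymes 4 were tested in each table. In AAV-TKT 4 of 4 were negative, with a median of -0.32: Alox5ap, which serves leukotriene synthesis, at -0.42 and Enpp2, which makes lysophosphatidic acid, at -0.25, both with no overlap, and Pla2g16 at -0.38. In Ribose Pla2g16 was at -1.03, Plpp3, which degrades lysophosphatidic acid, at -0.48 and Alox5ap at 0.46. Of 8 relatives of the lysophosphatidic acid and leukotriene receptors only Lpar1 was listed in the AAV table, at -0.23. In Ribose, 3 were tested: Cysltr1 at 1.17, Lpar4 at 0.66 with no overlap, and Lpar1 at -0.61.

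Of 14 purinergic genes 11 were measured in the AAV table, 8 negative and 3 positive, with a median of -0.16. The purinergic receptors named here went both ways. P2rx6 had 15.3, 14.3 and 13.6 FPKM in AAV-TKT, against 10.9, 11.4 and 9.79 FPKM in AAV-GFP, a change of 0.40 (limma adjusted p = 0.333). P2ry2 was at 0.31, while P2ry1 was at -0.38. The groups did not overlap for any of these receptors. In Ribose 12 were tested, with a median of -0.03; Entpd2, a nucleotidase, was at -1.04, P2ry12 at -0.97 and P2rx5 at -0.30.

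Of 16 partners of the natriuretic and somatostatin peptides 8 were measured in the AAV table, 6 positive and 2 negative, with a median of 0.06. Sstr1, a somatostatin receptor, had 2.30, 1.55 and 1.52 FPKM in AAV-TKT, against 0.943, 1.00 and 0.640 FPKM in AAV-GFP, a change of 0.58 (SE 0.163, limma adjusted p = 0.378). In Ribose it had 2.68, 3.24 and 2.53 FPKM, against 2.22, 2.14 and 0.839 FPKM in Vehicle, a change of 0.52 (SE 0.293, limma adjusted p = 1.00). In neither experiment did the groups overlap, which held with the treated group higher for 11.3% of all genes in the AAV table and 4.28% in the ribose table, and neither change passed the threshold. Sstr1 was named for its small p, so this lack of overlap is no separate support. Its AAV-GFP values also averaged under 1 FPKM. Sstr1 was thus listed through AAV-TKT, and its sign there, counted in the 6 positive, is no separate support. Pcsk2, a prohormone convertase, was at 0.15 and Sstr2 at 0.30 in AAV-TKT, and in Ribose Npr2, a natriuretic peptide receptor, was at 0.24 and Furin at -0.36, with a list median of -0.10.

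Of 15 genes of Gq transduction, the path used by Mrgprd, Mrgpra3 and the lipid receptors, 13 were tested in each experiment, with a median of -0.10 in AAV-TKT and -0.02 in Ribose. Prkcd, Rgs4 and Itpr1 were at -0.19, -0.19 and -0.20 in AAV-TKT, and Itpr1, Itpr3 and Plcb1 at -0.34, -0.57 and 0.21 in Ribose. No gene of any of these 9 lists passed the adjusted threshold in either experiment, and the lists' medians compare with 0.014 over all genes in AAV-TKT and -0.023 in Ribose. Over all genes, groups without overlap were found for 7.2% lower and 11.3% higher in AAV-TKT, and for 5.35% lower and 4.28% higher in Ribose. A negative change was found for 46.3% in AAV-TKT and 55.2% in Ribose. Markers of peptidergic nociceptors, the other small pain neurons, had a median of 0.04 in AAV-TKT, with 6 of 9 positive, and of 0.20 in Ribose, with 9 of 9 positive. Markers of C low-threshold mechanoreceptors, unmyelinated touch neurons, had a median of -0.29 in AAV-TKT, with 5 of 5 negative, and of 0.15 in Ribose, with 2 of 5 negative.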

How the data were processed

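Polyadenylated RNA of 12 libraries was made into directional libraries, per the labels' protocols. Per the submitters' processing notes, reads were handled with bcl2fastq 2.20, FastQC and Trim Galore on GRCm38. No aligner, counter, annotation or normalization is named there. The authors deposited FPKM, in 1 table per experiment. Every gene of the AAV table had a mean of at least 1 FPKM (lowest 1.00041), and totals were 413635 to 456084 FPKM per AAV library and 510551 to 551370 FPKM per ribose library. Depth is unknown. The spacing of low values gave relative depths of 0.751 to 0.908 for Ribose and 1.01 to 1.34 for Vehicle libraries, and gave no stable answer in the AAV table.

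Identifiers were matched to GENCODE M21, with a symbol for 13170 of 13178 AAV genes and 21612 of 21650 ribose genes. Columns headed as controls in the ribose table were taken as Vehicle. Each table was fitted alone with limma 3.58.1 in R 4.3.3 on log2(FPKM + 1) with an intensity trend, keeping genes whose mean reached 1 FPKM (13178 and 13804), and adjusted by Benjamini-Hochberg at 0.05. The difference of effects was fitted over 12 libraries. The script was tested on simulated data. The filter at a mean of 1 FPKM removed none of the receptor and peptide genes named at the start. Sst was not listed in the AAV table. In the ribose fit the filter did remove genes of other lists. There 3 of 12 listed macrophage markers and 4 of 9 listed ligands and ligand-making enzymes were tested.

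The 10 genes and the wider lists were chosen with earlier results of these data known. Of each wider list, the 3 genes with the smallest unadjusted p per experiment were named, apart from a few that are not reported here. Alternatives were a pseudocount of 0.1 or 0.5, a filter at a mean of 5 FPKM or none, 3 scalings (equal totals, quantile, median of ratios), weights per library, the replicate number as a block, each library left out in turn, and both replicate 2 libraries of the ribose experiment left out together.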

Additional observations from a re-analysis of the deposited data

How the results depend on the processing

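None of the 10 genes passed the adjusted threshold in either experiment, or in the difference of effects, under any alternative run. In AAV-TKT against AAV-GFP each of the 9 genes stayed negative in every alternative in which it was tested, Il31ra and Nppb being left out by the filter at 5 FPKM. The filters and the replicate block leave a gene's estimate as it was in both experiments, so they could not turn a sign. The lowest limma adjusted p was 0.116 (Il31ra) and 0.155 (Lpar5), both with weights per library. The median log2 change of the 9 genes was -0.24 with weights per library. It was -0.488 to -0.229 with 1 library left out, the latter without AAV-GFP replicate 2. The number of genes called over all genes, 2 in the AAV experiment, was 5 with a pseudocount of 0.1, 4 with a mean of at least 5 FPKM, 4 with equal totals, 23 with weights per library, 0 with the replicate block, and 1 to 40 with 1 library left out, 40 being without AAV-GFP replicate 2. In the ribose experiment it was 1, against 2 with a pseudocount of 0.5, 2 with equal totals, 3 without Vehicle replicate 2 and Ribose replicate 2, and 1 to 4 with 1 library left out. The cause of these shifts was not tested.

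The ribose median ran from -0.48 to 0.355 with 1 library left out, -0.48 being without Vehicle replicate 3 and 0.355 without Vehicle replicate 2. Signs of single genes turned there. With weights per library Mrgprd was 0.21, Lpar5 0.04, Sst 0.12, P2rx3 0.08 and Mrgpra3 0.10, without both replicate 2 libraries Mrgprd was 0.03, Sst 0.12, P2rx3 0.07 and Mrgpra3 0.11, and with quantile normalization P2rx3 was 0.02. With 1 library left out the changes ran from -0.30 to 0.62 for Cysltr2, -0.31 to 0.76 for Lpar3, -0.82 to 0.32 for Lpar5, -0.43 to 0.21 for Mrgpra3, -0.54 to 0.48 for Mrgprd, -0.81 to 0.04 for Nppb, -0.14 to 0.39 for Osmr, -0.29 to 0.26 for P2rx3 and -0.63 to 0.41 for Sst. Of the 10 genes, only Il31ra kept its sign in every alternative in which it was tested, from -0.88 to -0.24. In the difference of effects, Nppb was 0.20 with quantile normalization and 0.46 with weights, and Il31ra -0.08 with weights and -0.05 without both replicate 2 libraries. With 1 library left out the differences ran from -0.28 to 0.36 for Il31ra, -0.77 to 0.36 for Lpar5, -0.43 to 0.21 for Mrgpra3, -0.65 to 0.36 for Mrgprd, -0.52 to 0.33 for Nppb and -0.33 to 0.22 for P2rx3.

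Replicate numbers are shared between groups, but same-numbered libraries did not all deviate together: the correlations of their deviations were 0.03, 0.07 and -0.01 in the AAV experiment and 0.04, 0.36 and 0.16 in the ribose experiment, and not every library correlated best with its own number. Ribose replicates 2 and 3 did correlate best with the Vehicle library of their own number. The numbers are not treated as pairs in the main fit, and the replicate block was run as an alternative. With it 0 genes were called in the AAV experiment and 1 in the ribose experiment, where the limma adjusted p of Il31ra was 0.611. Unknown depth limits the AAV values of low genes such as Nppb, and 3 libraries a group limit all intervals.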
